A study of Mus musculus with 32 samples.

Results

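Metallothioneins and genes that regulate or carry zinc were followed through mouse preimplantation development and into embryos injected with knockdown siRNA. The 6 genes were Mt1, Mt2, Mtf1, Slc30a1, Slc39a6 and Slc39a10, taken by their symbols from a stage table of 24013 genes and 2 knockdown tables of 22536 genes each, and all 6 were present in every table. They were selected on a shared function with their FPKM values in these tables in view, so the values of the 6 are given as descriptions. Metallothioneins are small cysteine-rich proteins that bind zinc and copper. Mtf1 is the zinc finger transcription factor that senses zinc and switches on Mt1, Mt2 and Slc30a1 through short promoter motifs called metal response elements. Slc30a1 (ZnT1) exports zinc across the plasma membrane, and Slc39a6 (ZIP6) and Slc39a10 (ZIP10) are related importers. The maturing oocyte is known to accumulate zinc, and the egg to release part of it after fertilization.

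The study profiled RNA in 32 samples by a Smart-seq2 protocol. Stage embryos came from C57BL/6N females, given pregnant mare's serum gonadotrophin and hCG at 5 IU each and mated with DBA/2N males. These were zygote, early 2-cell, 2-cell, 4-cell and 8-cell embryos (2 samples each) and inner cell mass (ICM, 3 samples) isolated by immunosurgery, which removes the trophectoderm. The 2 MII oocyte samples came from superovulated C57BL/6N females 20 h after hCG, and the 2 embryonic stem cell (mESC) samples were the R1 line in LIF and serum. For the knockdowns, C57BL/6N x DBA/2N embryos were injected with siRNA and cultured in CZB medium with glutamine: 8-cell embryos as control (4 libraries) or Nr5a2 knockdown (4), and blastocysts as control (3) or Gata4 knockdown (4). What the control embryos received, the siRNA sequences and the number of embryos per library were not given in the labels used here, so p-values measure the spread between libraries, which may be partly technical. The 2 knockdown tables and the stage table were normalized separately and were not tested against each other.

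Values are FPKM (fragments per kilobase of transcript, scaled to all mapped fragments of the library) as the authors deposited them, with 1 value per stage and 1 per knockdown library, so stage values carry no error. FPKM totals were 234738 to 495643 in the stages, 285293 to 308689 in the 8-cell libraries and 237292 to 366359 in the blastocyst libraries. Read totals are not given; steps between low FPKM values put the deepest 8-cell library, knockdown 1, at 2.94 times the reads of the shallowest, control 3 (25 of 28 pairs of libraries within 3% of the fitted ratio). Nr5a2 itself fell from 20.6 ± 5.39 to 5.33 ± 1.54 FPKM (SD, n = 4 each) in its knockdown (limma adjusted p = 0.0143), and Gata4 stood at 0.716 to 5.44 FPKM in the 3 controls and at 0 to 0.368 FPKM in its 4 knockdown libraries. Of 84 ribosomal protein genes, 12 were listed at 0 in MII oocytes and at most 1 in any other stage, so a 0 in oocytes is reported only as listed at 0. Summed markers followed the stage labels in part: 6 oocyte markers were highest in MII oocytes (10989 FPKM), and 6 trophectoderm markers stood at 167 FPKM in ICM against 2192 to 4432 FPKM in whole blastocyst libraries. The 5 2-cell markers were higher in early 2-cell (272 FPKM) than in 2-cell embryos (119). The 6 ICM markers were highest in mESC (663) and ICM (622) but higher in MII oocytes (84.4) than in 2-cell embryos (28.1). Markers of cumulus cells and fibroblasts summed to at most 1.52 FPKM in every stage. Cumulus markers reached 18.6 FPKM in blastocyst Gata4 knockdown 4, all of it from Cyp11a1.

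The regulatory sequence in front of the genes is shown first, because Mt1, Mt2 and Slc30a1 are known targets of Mtf1. RefSeq promoter windows on build GRCm38.p6 (250 bases before the annotated start to 50 after it) were searched on both strands for the core of the metal response element, TGCACNC or TGCGCNC, whose matches can overlap only between strands. The 250 bases before the start are printed for the 3 genes with a match there among the 5 searched (Mt1, Mt2, Mtf1, Slc30a1 and Slc39a10; Slc39a6 was not analysed here), in lower case with each match in capitals. All 3 lie on the plus strand. Mt1 is chr8:94178839-94179088, Mt2 is chr8:94172368-94172617 and Slc30a1 is chr1:191906531-191906780. A match on the minus strand appears in capitals as its reverse complement (GTGTGCA for TGCACAC).
Mt1: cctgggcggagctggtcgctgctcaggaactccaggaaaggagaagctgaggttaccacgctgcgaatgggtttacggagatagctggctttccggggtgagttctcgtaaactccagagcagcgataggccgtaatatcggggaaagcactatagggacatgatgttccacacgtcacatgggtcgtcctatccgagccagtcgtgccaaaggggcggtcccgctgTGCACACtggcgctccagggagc
Mt2: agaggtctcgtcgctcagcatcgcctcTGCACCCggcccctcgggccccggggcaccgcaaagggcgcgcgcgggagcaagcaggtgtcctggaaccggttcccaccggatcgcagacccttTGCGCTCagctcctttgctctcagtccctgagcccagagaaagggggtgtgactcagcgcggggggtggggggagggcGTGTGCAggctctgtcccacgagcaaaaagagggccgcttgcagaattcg
Slc30a1: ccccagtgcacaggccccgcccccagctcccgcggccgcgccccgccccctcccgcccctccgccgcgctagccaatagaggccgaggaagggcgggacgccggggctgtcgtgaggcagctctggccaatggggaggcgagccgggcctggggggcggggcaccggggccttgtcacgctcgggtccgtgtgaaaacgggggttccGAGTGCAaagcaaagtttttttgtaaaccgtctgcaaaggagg
The whole 300-base window held 4 matches at Mt2, 3 at Mt1 and 2 at Slc30a1, counting those in the 50 bases after the start. Among 32851 such windows of 27025 genes, 25.7% held at least 1 match, 7.11% at least 2, 1.97% at least 3 and 0.517% at least 4. The windows of Mtf1 and Slc39a10 held none of these letters, and Mt4 and Mt3, the other metallothionein genes, held 1 each. GENCODE starts differ from the RefSeq starts used here. The 3 Mt1 transcripts it annotates as protein-coding start at -7, 122 and 152 bases from the RefSeq start, the 2 of Mt2 at 46 and 242, and the 2 of Slc30a1 at -14 and 475, with negative values upstream. The 50 bases searched after the RefSeq start end short of the GENCODE starts at 122, 152, 242 and 475. Sequence just before those starts was not searched, so the counts describe these windows only. A match describes letters and is not a measured binding site. The expression values were made on another build (mm9), so no coordinate was taken from them.

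The stage series asked how transcript levels run from the oocyte to the ICM, and Mt1 and Mt2 went from listed at 0 to among the most abundant transcripts of the embryo by the 2-cell stage. Mt1 was listed at 0 in MII oocytes and stood at 1.47 FPKM in zygotes, 8.53 in early 2-cell, 925 in 2-cell, 1827 in 4-cell and 1292 in 8-cell embryos, 182 in ICM and 1207 in mESC. Mt2 was listed at 0 in MII oocytes and stood at 1.12, 7.13, 626, 881 and 755 FPKM from zygote to 8-cell embryo, 150.1 in ICM and 858 in mESC. As deposited, both were low up to the early 2-cell stage, peaked in 4-cell embryos and were lower in ICM than in any stage from 2-cell to 8-cell. The log2 step of Mt2 from 2-cell to 4-cell was 0.49 as deposited and 0.09 with a common FPKM total. With a common median the Mt2 steps from 4-cell to 8-cell, ICM and mESC were -0.02, -2.62 and 3.14. That puts Mt2 higher in mESC than in 4-cell embryos. From early 2-cell to 2-cell embryos Mt1 was 108-fold and Mt2 87.9-fold higher. Rn45s, the precursor of ribosomal RNA, made up 1.41% of all FPKM in MII oocytes, 2.19% in early 2-cell embryos and 0.748% in mESC. It was listed at 0 in the other stages. Each step up to the 2-cell stage, and that from ICM to mESC, crosses this difference, whose part was not tested. With a common FPKM total without Rn45s, the early 2-cell to 2-cell steps were 7.08 (Mt1) and 6.77 (Mt2) on the log2 scale. Mt1 was the gene with the 5th highest FPKM in 2-cell embryos and the 3rd in 4-cell embryos, and ranked 19 in 8-cell embryos, 378 in ICM and 36 in mESC. Together the pair made up 0.00503% of all FPKM in early 2-cell embryos, 0.661% in 2-cell, 0.870% in 4-cell and 0.610% in 8-cell embryos.

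**Figure D1:**
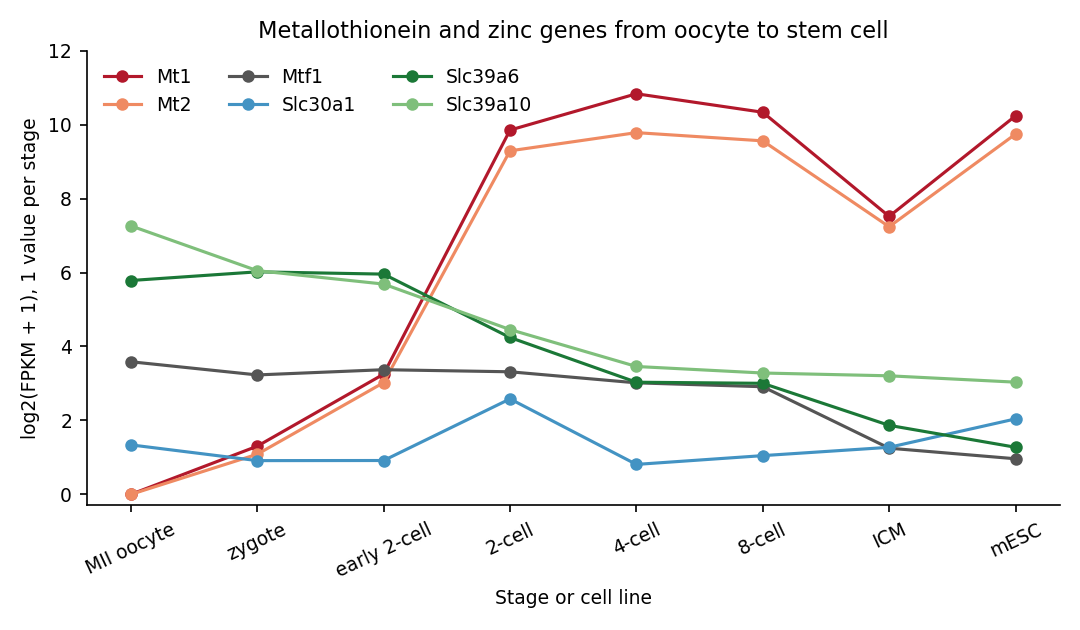
Level of the 6 genes, as log2(FPKM + 1) on the vertical axis, in the 8 stages and cell line on the horizontal axis, with 1 deposited value per point and no error. Mt1 and Mt2 are far higher in 2-cell than in early 2-cell embryos while Slc39a6 and Slc39a10 are lower, and Mtf1 stays between 6.52 and 11.02 FPKM up to the 8-cell stage.

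ICM was the exception among the later samples. Mt1 was 7.08-fold higher in 8-cell embryos than in ICM and 6.62-fold higher in mESC than in ICM, and Mt2 was 5.03-fold and 5.71-fold higher. Whole blastocysts in the separate knockdown table stood at 2318 to 4280 FPKM of Mt1 and 1187 to 2151 FPKM of Mt2 in the 3 control libraries. Those libraries hold trophectoderm, and the ICM sample lacks most of it by its markers. They also differ from the ICM samples in culture and in the table they come from, and what part each has in the gap cannot be told apart. Fewer cells of a type and less RNA per cell cannot be told apart in any of these bulk samples.

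Mt1 and Mt2 lie next to each other on chromosome 8 and ran almost in parallel. Their Pearson r over log2(FPKM + 1) in the 8 stages was 0.9991. This was the highest for either of them among genes with a standard name and at least 5 FPKM in some stage. The next most like Mt1 were Aprt, a purine salvage enzyme (r = 0.9923), and Rps16, a ribosomal protein (0.9899), and the next most like Mt2 were Mcl1, an inhibitor of apoptosis (0.9925), and Aprt (0.9912). The 8 points share their libraries and a common step at the 2-cell stage, which many genes take. The ratio of Mt1 to Mt2 was 1.20 to 2.07 in the stages where both were above 0. It was 0.786 to 1.09 in the injected 8-cell controls and 1.74 to 1.99 in the blastocyst controls. Their transcripts share 79.2% identity over 192 bases, and no gene had 95% identity over at least 50% of a transcript of any of the 6. Mt2 does overlap an antisense transcript, Gm45774, over 212 bases, and Smart-seq2 reads do not mark the strand.

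**Figure D2:**
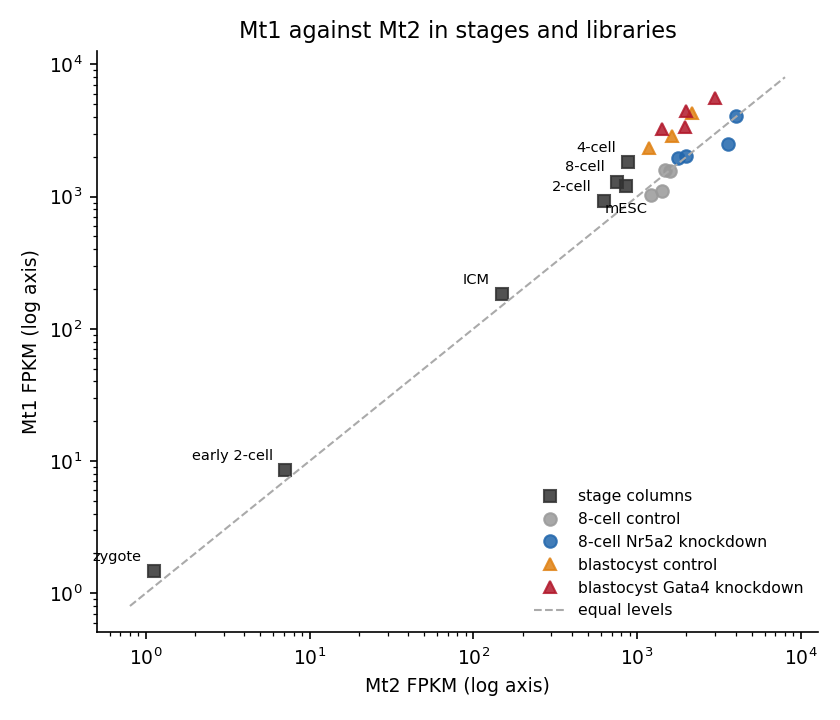
Mt1 against Mt2 in FPKM on log axes, for the 7 stage columns in which both were above 0 and for each library of the 2 knockdown tables. The stages lie above the line of equal levels, the 8-cell knockdown-table libraries lie near it, and blastocyst libraries lie above it. The tables were normalized separately.

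The other metallothionein genes did not share this course. Mt4, which is known from stratified epithelia, was highest among the stages where Mt1 and Mt2 were lowest. It stood at 53.9 FPKM in MII oocytes, 19.0 in zygotes and 29.8 in early 2-cell embryos. In 2-cell embryos it was at 3.40 FPKM, and at most 0.344 in any later stage column. The injected libraries, normalized separately, held 0 to 5.40 FPKM in 8-cell controls and 0 to 12.2 in Nr5a2 knockdowns. Blastocyst libraries held 0 to 4.82 FPKM of Mt4 in controls and 0 to 8.73 in Gata4 knockdowns. Mt3, the brain metallothionein, was listed at 0 in all 8 stages.

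Mtf1, the regulator, was present in oocytes and differed little across the stages in which Mt1 and Mt2 went from low to high. It stood at 11.02 FPKM in MII oocytes, 8.39 in zygotes, 9.35 in early 2-cell, 8.96 in 2-cell, 7.09 in 4-cell and 6.52 in 8-cell embryos, 1.38 in ICM and 0.949 in mESC. Between early 2-cell and 2-cell embryos its log2 difference was -0.06 as deposited and between -0.24 and 0.33 with stages scaled to a common median or total. From 8-cell embryos to ICM it was 4.74-fold lower, the same step at which Mt1 and Mt2 were lower. In mESC Mt1 and Mt2 were high and Mtf1 was at its lowest. The genes most like Mtf1 over the stages were Ino80d (r = 0.9931), Mbd3l2 (0.9876) and Cecr2 (0.9853), all highest in MII oocytes. With stages scaled to a common FPKM total, 0 of these 3 stayed among the 3 most like it.

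Slc30a1, the exporter, had a narrow peak in 2-cell embryos. Its values were 1.53 FPKM in MII oocytes, 0.882 in zygotes, 0.886 in early 2-cell, 4.99 in 2-cell, 0.753 in 4-cell and 1.07 in 8-cell embryos, 1.42 in ICM and 3.12 in mESC. It never reached the 5 FPKM required to count a stage difference. The 2-cell level was 5.63-fold that of early 2-cell and 6.62-fold that of 4-cell embryos. Unlike Mt1 and Mt2, Slc30a1 was low again in 4-cell and 8-cell embryos. Most like it were Kctd9 (r = 0.9125), Sntb2 (0.8949) and Hbegf (0.8719), all of which also peaked in 2-cell embryos. Again 0 of these 3 stayed among the 3 most like it with a common FPKM total.

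The 2 importers were highest before the 2-cell stage and lower after it. Slc39a10 stood at 152.6 FPKM in MII oocytes, 65.3 in zygotes, 50.6 in early 2-cell, 21.0 in 2-cell, 9.995 in 4-cell and 8.73 in 8-cell embryos, 8.23 in ICM and 7.198 in mESC. Slc39a6 stood at 54.1, 63.9 and 61.2 FPKM in the first 3 stages, then 17.9 in 2-cell, 7.19 in 4-cell and 7.02 in 8-cell embryos, 2.65 in ICM and 1.42 in mESC. As deposited, Slc39a10 was already 2.34-fold lower in zygotes than in oocytes. Slc39a6 as deposited held its level until the early 2-cell stage and was 3.41-fold lower in 2-cell embryos. With a common FPKM total its log2 step from oocyte to zygote was 0.89, in place of 0.23. With stages scaled to a common FPKM total, the Slc39a10 steps from oocyte to zygote and from early 2-cell to 2-cell were -0.57 and -0.86 on the log2 scale, in place of -1.21 and -1.23. The genes most like Slc39a10 were Lrrc17 and Pax2 (r = 0.9980 each) and Mpped1 (0.9977), and those most like Slc39a6 were Echdc3 (0.9941), Usp53 (0.9936) and Slc10a6 (0.9929). Slc39a10 and Slc39a6 had r = 0.919 with each other and -0.925 and -0.811 with Mt1 over the same 8 stages.

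Between neighbouring stages, genes at 5 FPKM or more in either stage were counted as higher or lower where log2(FPKM + 1) differed by 1 or more, with no test since each stage has 1 value. From MII oocyte to zygote 1 of 3 was lower (Slc39a10), where 21.6% of 6246 genes were, and from zygote to early 2-cell 2 of 5 were higher (Mt1 and Mt2), where 5.36% of 5876 genes were. From early 2-cell to 2-cell embryos 5 of the 6 genes reached that level, 2 were higher (Mt1 and Mt2, where 34.7% of 7252 genes were) and 2 lower (Slc39a6 and Slc39a10, where 34.3% were). From 2-cell to 4-cell embryos 1 of 5 was lower (Slc39a6), where 17.3% of 6572 genes were. From 8-cell embryos to ICM 4 of 5 were lower (Mt1, Mt2, Mtf1 and Slc39a6), where 21.9% of 6611 genes were, and from ICM to mESC Mt1 and Mt2 of 3 genes were higher, where 11.6% of 6224 genes were. None passed between 4-cell and 8-cell embryos, where 6.9% of genes were higher and 9.71% lower. The Slc39a10 counts did not hold with stages scaled to a common FPKM total, and Mt1 was higher from 2-cell to 4-cell embryos only with a common median.

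The 24 listed ZnT and ZIP transporters had different courses. Of 14 ZIP importers 8 reached 5 FPKM in some stage, and of 10 ZnT exporters 3 did. Slc39a4, the intestinal zinc importer, was the highest importer from the 2-cell to the 8-cell stage and had a course like that of Mt1: 0.194 FPKM in early 2-cell, 62.1 in 2-cell, 205.4 in 4-cell and 146 in 8-cell embryos, 15.6 in ICM and 2.89 in mESC. Unlike Mt1 it was low in mESC. Slc30a3, which loads zinc into synaptic vesicles, was the highest exporter and maternal, at 353 FPKM in MII oocytes, 190.1 in zygotes and 227 in early 2-cell embryos, then 9.01 in 2-cell embryos and 1.43 in 4-cell embryos. At the step from early 2-cell to 2-cell, 5 importers and 3 exporters reached 5 FPKM in either stage. Of the importers 3 were higher (Slc39a1, Slc39a4, Slc39a9) and 2 lower (Slc39a6, Slc39a10). Of the exporters 2 were higher (Slc30a5, Slc30a6) and 1 lower (Slc30a3). Among all 7252 genes at that level, 34.7% were higher and 34.3% lower. With a common FPKM total Slc39a10 no longer counted as lower (-0.86). Both Slc39a1 and Slc39a2 were highest in 8-cell embryos, at 45.1 and 30.2 FPKM.

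**Figure D3:**
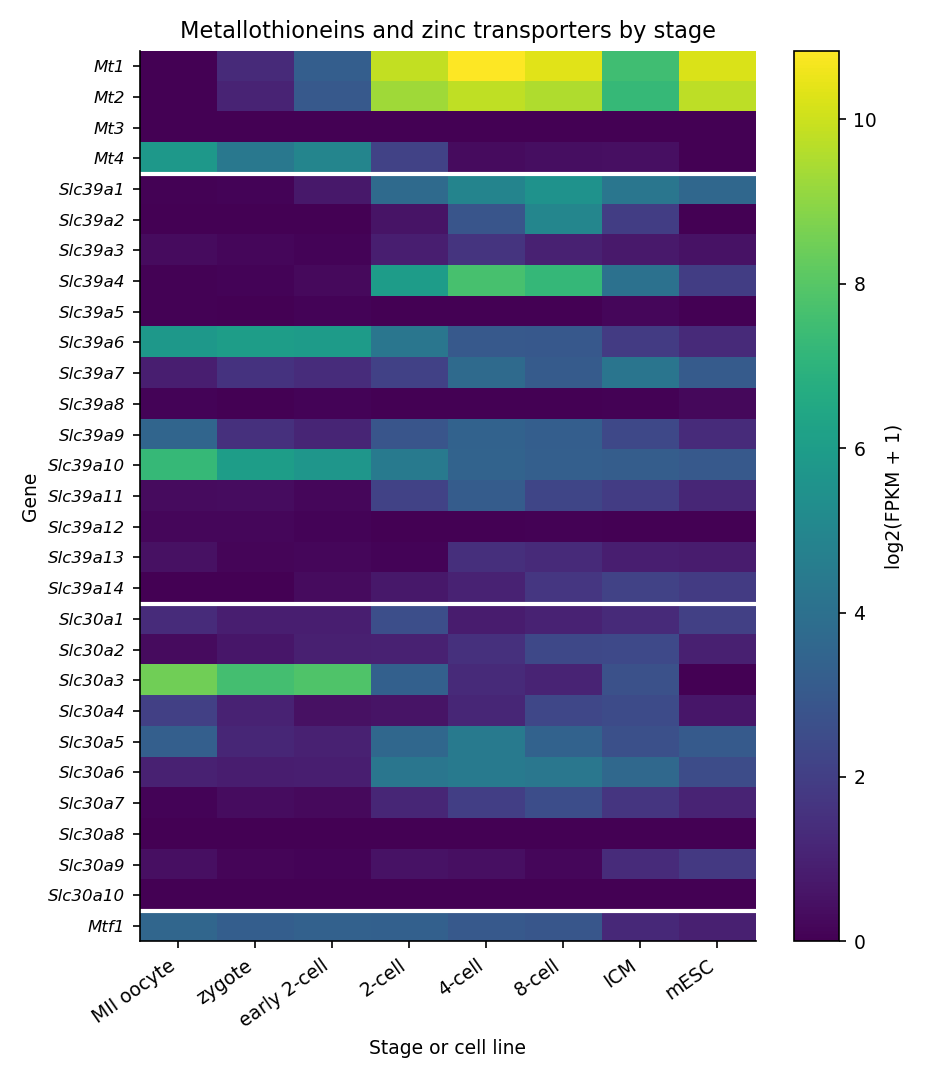
Heatmap of log2(FPKM + 1) for 4 metallothioneins, 14 ZIP importers, 10 ZnT exporters and Mtf1 (rows) in 8 stages (columns), 1 deposited value per cell. Maternal rows such as Mt4, Slc39a6, Slc39a10 and Slc30a3 are bright on the left, and Mt1, Mt2, Slc39a1 and Slc39a4 are bright from the 2-cell stage.

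The Nr5a2 knockdown asked what depends on this orphan nuclear receptor in 8-cell embryos, and Mt1, Mt2 and Slc39a6 were higher in every knockdown library than in every control library. The limma fit over 8170 genes called 185 of them (2.26%), 128 higher (1.57%) and 57 lower (0.698%), and with libraries scaled to a common median it called 67 higher and 81 lower. None of the 5 zinc genes it tested passed. Groups without overlap, knockdown above control, were found for 3 of these 5 genes and for 8.38% of all genes tested, and the opposite for none of the 5 and 3.45% of all. Since the genes were chosen with results of these tables known, the values that follow describe the libraries and are not independent evidence.

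Mt1 stood at 1107, 1032, 1563 and 1602 FPKM in controls 1 to 4 and at 4051, 1957, 2514 and 2030 FPKM in knockdowns 1 to 4. Knockdown 1 was far above the rest and the lowest knockdown library was above the highest control. The means were 1326 ± 298 and 2638 ± 974 FPKM (SD, n = 4 each), 1.99-fold apart, with a log2 difference of 0.95 (SE 0.23, limma adjusted p = 0.0558). Mt2 stood at 1410, 1210, 1582 and 1471 FPKM in controls and at 4029, 1767, 3613 and 1997 FPKM in knockdowns. Knockdowns 1 and 3 were high and the others close to the controls without overlapping them. Its log2 difference was 0.92 (SE 0.24, limma adjusted p = 0.0708), with means 2.01-fold apart. Over the alternatives tried the limma adjusted p was 0.0574 to 0.208 for Mt1 and 0.0532 to 0.235 for Mt2. The pair took 0.744% to 1.10% of all FPKM in controls and 1.21% to 2.74% in knockdowns.

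Mtf1 stood at 1.66, 1.58, 3.07 and 2.66 FPKM in controls and at 4.59, 2.88, 2.75 and 3.10 FPKM in knockdowns. Knockdown 1 was again the highest, controls 1 and 2 were the lowest, and the groups overlapped, with a log2 difference of 0.43 (SE 0.26, limma adjusted p = 0.367). Over the 8 libraries Mt1 had r = 0.917 with Mtf1 and 0.930 with Mt2 on the log2 scale, a description over points that share library and group. Slc30a1 was at 0.0130 to 0.508 FPKM in all 8 libraries, with overlapping groups, and fell below the filter of 1 FPKM in 4 libraries.

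Slc39a6 stood at 0.556, 0.406, 1.20 and 2.23 FPKM in controls and at 4.02, 6.46, 2.62 and 2.58 FPKM in knockdowns. All knockdowns were above control 4, the highest control, though knockdowns 3 and 4 only narrowly. The means were 1.10 ± 0.830 and 3.92 ± 1.82 FPKM (SD, n = 4 each) and the log2 difference was 1.24 (SE 0.34, limma adjusted p = 0.0785, range over alternatives 0.0614 to 0.213). Slc39a10 stood at 3.71, 3.08, 5.65 and 4.70 FPKM in controls and at 5.33, 3.76, 3.72 and 6.30 FPKM in knockdowns, overlapping, with a log2 difference of 0.13 (limma adjusted p = 0.812). The 2 importers that ran alike over the stages had unlike values in this comparison, a difference between genes that was not tested.

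**Figure D4:**
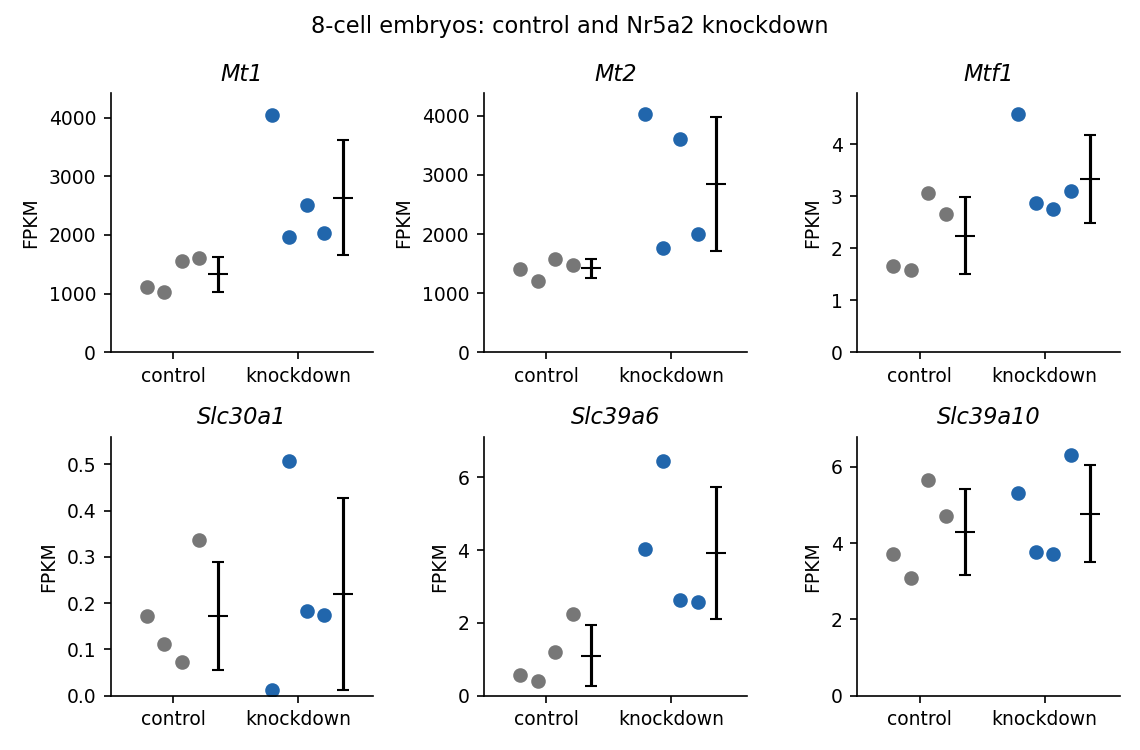
FPKM of each of the 6 genes in 4 control and 4 Nr5a2 knockdown 8-cell libraries (dots, replicates 1 to 4 from left to right), with the mean and SD beside each group. Knockdown dots of Mt1, Mt2 and Slc39a6 all lie above the control dots, and the groups of Mtf1, Slc30a1 and Slc39a10 overlap.

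The median log2 difference of all 8170 genes was 0.12, and scaling to a common median moved it to -0.01. The differences were then 0.81 for Mt1, 0.78 for Mt2, 1.15 for Slc39a6, 0.32 for Mtf1 and 0.01 for Slc39a10. Marker sums also differed in range, with overlapping groups. The 6 ICM markers summed to 121 to 220 FPKM in controls and 44.6 to 157 in knockdowns, the 6 trophectoderm markers to 82.1 to 109 and 104 to 141, and the 6 oocyte markers to 37.5 to 129 and 24.8 to 67.1 FPKM. Their part in the zinc gene values was not tested.

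Related metal genes were counted in the same fit. Of all 8170 genes tested, 60.5% had a positive difference, with a median of 0.12, and with a common median 49.5% did. Of 3 metallothioneins tested (Mt1, Mt2 and Mt4) all had a positive difference and none was called. Of 4 ZnT exporters tested all were positive and none was called, with Slc30a3 (1.15, limma adjusted p = 0.105) and Slc30a5 (0.59, limma adjusted p = 0.130) at the smallest p. Of 11 ZIP importers 8 were positive and none was called, with Slc39a6 and Slc39a9 (0.60, limma adjusted p = 0.304) at the smallest p. Their medians were 0.37 for the exporters and 0.13 for the importers.

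Among 9 copper genes tested, 8 were positive with a median of 0.69, and 1 was called higher, where 1.57% of all 8170 genes were. It was Slc31a1 (CTR1), the main cellular copper importer, at 4.93, 2.87, 5.84 and 6.08 FPKM in controls and 25.8, 12.9, 9.78 and 12.5 FPKM in knockdowns. It rose by 1.40 on the log2 scale (SE 0.32, limma adjusted p = 0.0443). All 4 knockdowns lay above all controls, as for 8.38% of all genes tested. Slc31a1 passed in only 1 of 15 alternatives, that without knockdown 3 (range 0.0331 to 0.151). Of 8 iron genes tested 1 was called higher and 1 lower, where 1.57% and 0.698% of all 8170 genes were. Hmox1, the haem-degrading enzyme, rose from 4.58 ± 1.69 to 19.3 ± 8.87 FPKM (log2 1.799, SE 0.35, limma adjusted p = 0.030). It passed in 8 of 15 alternatives, and not without control 1, 2 or 3 or knockdown 1 or 2 (limma adjusted p = 0.0588 to 0.0958). Steap3, a ferrireductase of endosomes, fell from 20.4 ± 5.12 to 5.20 ± 1.29 FPKM (log2 -1.77, SE 0.26, limma adjusted p = 0.0119), and passed in 14 of 15 alternatives.

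Of 6 stress response genes tested, Txnrd1, the cytosolic thioredoxin reductase, rose from 8.26 ± 1.47 to 20.5 ± 5.57 FPKM (log2 1.19, SE 0.25, limma adjusted p = 0.0370), and passed in 4 of 15 alternatives. Among libraries left out, it passed only without knockdown 1 or knockdown 3. The other 5 were not called, and neither were Ccnb1 and Cdc25b, the 2 genes tested of the egg list. Of all 8170 genes tested, 1.57% were called higher and 0.698% lower. These lists, too, were chosen with results known.

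The Gata4 knockdown asked what depends on this primitive endoderm factor in blastocysts, and none of the 6 genes separated the groups. The limma fit over 8782 genes called 3 lower and none higher (0.0342%), and none of the 5 zinc genes tested was among them, each with an adjusted p of 0.99997. At an unadjusted p under 0.05 limma had 202 genes. The libraries were of 2 kinds, which the labels do not explain. The precursor of ribosomal RNA, Rn45s, had no signal (0 FPKM) in control 2 and knockdowns 1 and 2, and made up 14.4% to 18.8% of all FPKM in the other 4. In a fit with this library kind as a term, 4482 genes (51.0%) were lower in libraries with Rn45s and 14 higher.

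Mt1 was among the most abundant transcripts of every blastocyst library. It stood at 2849, 4280 and 2318 FPKM in controls 1 to 3 and at 5599, 3337, 3259 and 4454 FPKM in knockdowns 1 to 4, ranking between 1 and 6 in each. Knockdown 1 was the highest and control 3 the lowest, and the groups overlapped (log2 0.41, SE 0.31). Mt2 stood at 1634, 2151 and 1187 FPKM in controls and at 2985, 1966, 1421 and 1992 FPKM in knockdowns, again with knockdown 1 highest and overlapping groups (log2 0.33, SE 0.33). The pair took 1.46% to 2.00% of all FPKM in controls and 1.72% to 2.36% in knockdowns.

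Mtf1 and Slc30a1 were separated by the library kind, and their control and knockdown groups overlapped. This is not particular to them, since 51.0% of all 8782 genes tested were called lower in libraries with Rn45s. The share of all genes without overlap between library kinds was not counted. Mtf1 stood at 1.17, 2.30 and 1.18 FPKM in controls and at 3.13, 3.38, 1.14 and 0.903 FPKM in knockdowns. The 3 libraries without Rn45s were at 2.30 to 3.38 FPKM and the 4 with it at 0.903 to 1.18 FPKM. Slc30a1 stood at 0.640, 2.87 and 1.09 FPKM in controls and at 2.54, 2.04, 0.576 and 1.48 FPKM in knockdowns, which is 2.04 to 2.87 FPKM without Rn45s and 0.576 to 1.48 with it. With the library kind as a term, libraries with Rn45s were lower by a log2 difference of -0.89 for Mtf1 (limma adjusted p = 0.00817) and -0.86 for Slc30a1 (limma adjusted p = 0.0165), beside a median of -0.64 over all genes tested. For Mt1 it was -0.40 (limma adjusted p = 0.202) and for Mt2 -0.57 (limma adjusted p = 0.0693).

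Slc39a10 and Slc39a6 were low in blastocysts. Slc39a10 stood at 1.23, 1.48 and 1.37 FPKM in controls and at 1.51, 1.84, 0.176 and 0.552 FPKM in knockdowns, with knockdowns 3 and 4, both with Rn45s, the lowest (log2 -0.31, SE 0.36). Its 3 libraries without Rn45s were at 1.48 to 1.84 FPKM and the 4 with it at 0.176 to 1.37 FPKM (log2 -0.64 with the library kind as a term, limma adjusted p = 0.0522). Slc39a6 was at 0.0375 to 0.553 FPKM in all 7 libraries and fell below the filter. Slc39a4 was again the highest importer, at 74.5 ± 17.7 FPKM in controls (SD, n = 3) and 105 ± 16.4 in knockdowns (SD, n = 4). No gene of the metallothionein, exporter, importer, copper, iron, stress or egg lists was called by limma. Those nearest to a call were Ftl1, a ferritin subunit (log2 1.15, limma adjusted p = 0.654), and Slc40a1, the iron exporter (log2 -2.32, limma adjusted p = 0.727). Slc40a1 ran from 5.80 to 111 FPKM in controls and from 0.712 to 34.4 FPKM in knockdowns, overlapping, while Ftl1 did not overlap (401 to 915 and 1073 to 1457 FPKM, knockdowns higher). Every knockdown library lay above every control library for 0.945% of all genes tested and below for 1.43%.

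**Figure D5:**
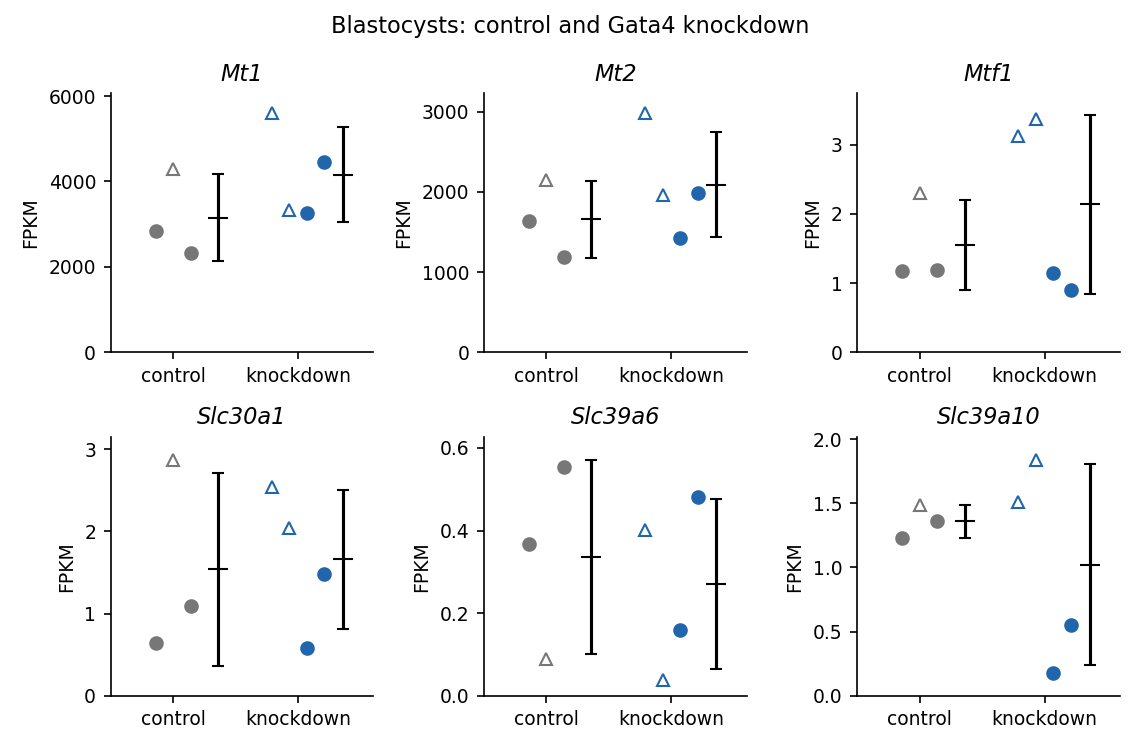
FPKM of each of the 6 genes in 3 control and 4 Gata4 knockdown blastocyst libraries (replicates from left to right), with the mean and SD beside each group. Open triangles are the 3 libraries with Rn45s listed at 0 and filled circles the 4 others, and for Mtf1, Slc30a1 and Slc39a10 all triangles lie above all circles. Of all 8782 genes tested, 51.0% were called lower in libraries with Rn45s, and Slc39a10 was not among them (limma adjusted p = 0.0522). The share of all genes without overlap between library kinds was not counted.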

How the data were processed

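Gene expression was measured in 32 samples by RNA sequencing of Smart-seq2 libraries, per the labels' protocols. The submitters' processing notes name CASAVA 1.8, STAR 2.4.0 and the mm9 build for every sample, and Cufflinks 2.2.1 for 20 samples, which leaves out MII oocytes, early 2-cell embryos and the injected 8-cell embryos. The authors deposited FPKM, and how samples of 1 stage were merged is not given in the sources used here. FPKM depends on what else a library holds, and Rn45s was 6.38% to 18.8% of the total in the libraries that list it in the knockdown tables. In the stages it was at most 2.19%, in early 2-cell embryos.

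A gene was tested if 4 (8-cell) or 3 (blastocyst) libraries held 1 FPKM or more. limma 3.58.1 (R 4.3.3, prior variance with a trend) compared log2(FPKM + 1), so fold changes of low genes are understated, with Benjamini-Hochberg adjustment over all genes tested and a threshold of 0.05. Group means are arithmetic. In simulated data, shifts of 1 and 2 on the log2 scale were recovered in 45% and 88% of shifted genes for the 8-cell comparison (8170 genes) and 2% and 52% for the blastocyst one (8782 genes). Only genes with a control mean log2(FPKM + 1) of at least 2 were shifted. Mtf1 and Slc39a6 in 8-cell embryos, and Mtf1, Slc30a1 and Slc39a10 in blastocysts, lie below that level, so these rates do not cover them. Noise was drawn independently for each library, so the shared difference between the blastocyst library kinds was not simulated.

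Genes named were the 6 members and the 3 genes with the highest Pearson r to each over the stages. Those 3 were taken from genes with at least 5 FPKM somewhere (9573) that also had a standard name, which left out Gm, Rik, LOC and similar loci. Of each list (metallothioneins, ZnT exporters, ZIP importers, copper, iron, stress response, egg) the called genes were named, otherwise the 2 with the smallest p, and the gene with the highest stage value. Other list genes named by stage were chosen after their values were seen. Members and lists were chosen with earlier results of these data known. Alternatives were pseudocounts of 0.1 and 5, no filter, scaling to a common median or total, the replicate number as a block and leaving out each library. After the data were seen, scaling without Rn45s and libraries of 1 kind only were added.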

Additional observations from a re-analysis of the deposited data

How the results depend on the processing

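For the Nr5a2 knockdown, limma called 185 genes as reported, 108 with a pseudocount of 0.1, 170 with 5, 11 with no filter on low values, 148 with a common median, 102 with a common FPKM total and 96 with a common total without Rn45s. Leaving out 1 library gave 21 (without control 1) to 285 genes (without knockdown 3). For the Gata4 knockdown it called 3 as reported, 1 with a pseudocount of 0.1, 0 with no filter, with a common median or total (also without Rn45s), with the library kind as a term or in libraries with Rn45s alone, 1 in libraries without Rn45s alone, and 1 to 27 with 1 library left out. In these fits with 0 calls, 507 to 756 genes had an unadjusted p under 0.05. Same-numbered control and knockdown libraries had correlated deviations of -0.11 to 0.08 (8-cell) and -0.10 to 0.28 (blastocyst), so the numbers were not taken as pairs; with the replicate block limma called 55 and 16 genes, the latter without knockdown 4, which has no partner. None of the 5 zinc genes tested in either knockdown passed under any of the 15 (8-cell) or 17 (blastocyst) alternatives, and in the Nr5a2 knockdown all 5 kept a positive sign. In that knockdown 60.5% of all 8170 genes were positive as reported. In the Gata4 knockdown the log2 difference of Mtf1 turned to -0.11 in libraries with Rn45s alone, and that of Slc39a10 to 0.10 in libraries without it. That of Slc30a1 turned to -0.0400 with the library kind as a term and -0.24 in libraries without Rn45s, and ran from -0.16 to 0.46 with 1 library left out. The cause of these changes was not tested. Scaling and pseudocount moved the log2 span between highest and lowest stage of the 6 genes in 24 of 30 recomputed values, from 8.15 to 10.2 for Mt1 and from 0.80 to 2.70 for Slc30a1. Among the 6 genes, scaling turned the sign only of small stage steps, all in Mtf1, Slc30a1, Slc39a6 and Slc39a10, the largest being that of Mtf1 from MII oocyte to zygote (-0.36). The genes most like each member over the stages also changed with a common FPKM total. Of the 3 named, 2 stayed for Mt1 and for Mt2, 1 for Slc39a6 and for Slc39a10, and 0 for Mtf1 and for Slc30a1. Stage values have no replicate error, Slc39a6 and Slc30a1 were each below the filter in 1 kind of injected embryo, and the absolute read depth behind each value is unknown.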

Other observations

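Other metal and stress genes had courses of their own over the stages, with 1 deposited value each. Cox17, the copper chaperone of cytochrome oxidase, stood at 7.04 FPKM in MII oocytes, 1.44 in early 2-cell and 146 in 2-cell embryos, 904 in ICM and 1250 FPKM in mESC. Ftl1 stood at 5.89 FPKM in MII oocytes, 21.2 in zygotes, 65.7 in early 2-cell and 226 in 2-cell embryos, 1333 in ICM and 1639 in mESC. From zygote to early 2-cell embryos Ftl1 was higher, while Cox17 was lower (10.1 to 1.44 FPKM). Both were thus high in ICM, where Mt1 and Mt2 were low. Sod1, the copper and zinc superoxide dismutase, was at 28.0 FPKM in MII oocytes, 302.5 in early 2-cell and 102 in 2-cell embryos, and 977 in mESC. Of the egg genes, Ccnb1 (cyclin B1) was highest in 8-cell embryos at 815 FPKM.

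The 4 genes called in the Nr5a2 knockdown stood in uninjected 8-cell embryos at 13.0 FPKM (Slc31a1), 1.498 (Hmox1), 9.75 (Steap3) and 4.803 (Txnrd1). Steap3, which fell in the knockdown, was listed at 0 up to the early 2-cell stage and was highest in 8-cell embryos. In the Gata4 knockdown the median log2 difference was 0.33 for metallothioneins (3 genes tested), 0.09 for exporters (6), -0.21 for importers (10), -0.04 for copper genes (8), 0.04 for iron genes (9), 0.10 for stress genes (9) and 0.18 for egg genes (2), beside -0.02 over all 8782 genes.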
